A study of Mus musculus with 4 samples.

Results

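The nuclear-encoded genes of the mitochondrial respiratory chain were examined by complex in mouse leukemic bone marrow with and without Hes1. Members were chosen by gene symbol alone, from the symbols of complexes I to V in the annotation of the Affymetrix MoGene array. The rule found 90 of the 19938 genes with a symbol of their own: 43 for complex I, 4 for complex II, 9 for complex III, 17 for complex IV and 17 for complex V. It takes in 7 assembly factors of complex I (Ndufaf1 to Ndufaf7), which are not subunits, and Cox7a2l, which helps respiratory complexes join into supercomplexes. Ndufa4, named for complex I, is now counted with complex IV. The genes Cox7c and Ndufb4 share their probe sets with a second symbol and were left out by the rule.

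The series holds 4 arrays, each hybridised with total RNA of leukemic whole bone marrow from C57BL/6 mice. Hes1-null marrow (MLL-AF9/Hes1-/-, 2 arrays) was set against wild-type marrow (MLL-AF9/Hes1+/+, 2 arrays), and all 4 marrows carried leukemia driven by the MLL-AF9 fusion protein, which arises in acute myeloid leukemia. The labels give no age or sex, do not say how Hes1 was deleted or how MLL-AF9 was introduced, and do not say whether the samples came from separate animals. The study asked whether Hes1, a transcriptional repressor induced by Notch, carries the restraint that Notch places on this leukemia.

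The respiratory chain sits in the inner mitochondrial membrane. Complex I takes electrons from NADH and complex II from succinate, and both pass them to ubiquinone. Complex III passes them on to cytochrome c and complex IV to oxygen, while complexes I, III and IV pump protons. Complex V, the ATP synthase, lets the protons flow back and makes ATP. All complexes but the second mix subunits encoded in the nucleus with a few encoded by mitochondrial DNA, and acute myeloid leukemia cells are known to lean on this pathway for energy. The nuclear genes are known targets of the transcription factors NRF1 and GABP and, for some of them, YY1 and SP1.

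The promoters of 5 genes are shown as the bases just before the transcription start, from RefSeq on build GRCm38.p6, each as the 250 bases 5′ to 3′ on the strand of the gene. Capitals mark matches to GCGCA with any base and then GCGC (NRF1), CCGGAAG (GABP), AAGATGG (YY1) or GGGCGGG (SP1) on either strand. Uqcr11, Ndufs6 and Atp5g2 were taken as the genes with the largest positive difference and non-overlapping genotypes in complexes III, I and V, Cox6a1 because it holds matches to 3 of the motifs, and Ndufc2 as a gene that was lower on both Hes1-null arrays and holds none. The windows are chr10:80406822-80407071 (minus strand) for Uqcr11, chr13:73328483-73328732 (minus) for Ndufs6, chr15:102671048-102671297 (minus) for Atp5g2, chr5:115348959-115349208 (minus) for Cox6a1 and chr7:97399753-97400002 (plus) for Ndufc2.
Uqcr11: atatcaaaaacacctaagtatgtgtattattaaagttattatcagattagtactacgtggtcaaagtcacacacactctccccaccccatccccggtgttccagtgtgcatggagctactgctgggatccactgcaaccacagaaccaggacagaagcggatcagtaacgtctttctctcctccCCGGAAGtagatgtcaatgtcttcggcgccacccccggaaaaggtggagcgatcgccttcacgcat
Ndufs6: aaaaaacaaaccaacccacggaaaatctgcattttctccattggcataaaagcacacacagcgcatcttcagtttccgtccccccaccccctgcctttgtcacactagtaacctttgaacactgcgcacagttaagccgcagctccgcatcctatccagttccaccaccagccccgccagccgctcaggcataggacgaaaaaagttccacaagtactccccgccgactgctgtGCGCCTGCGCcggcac
Atp5g2: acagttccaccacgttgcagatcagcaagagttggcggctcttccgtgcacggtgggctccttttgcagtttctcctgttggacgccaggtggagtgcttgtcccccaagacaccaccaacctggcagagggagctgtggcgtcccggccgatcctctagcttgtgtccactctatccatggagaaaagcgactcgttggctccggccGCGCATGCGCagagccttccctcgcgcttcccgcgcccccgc
Cox6a1: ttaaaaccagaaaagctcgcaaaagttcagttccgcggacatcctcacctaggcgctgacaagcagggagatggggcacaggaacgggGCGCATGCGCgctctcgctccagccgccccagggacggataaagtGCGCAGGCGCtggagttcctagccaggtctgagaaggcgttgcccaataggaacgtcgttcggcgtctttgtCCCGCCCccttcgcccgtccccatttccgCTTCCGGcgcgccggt
Ndufc2: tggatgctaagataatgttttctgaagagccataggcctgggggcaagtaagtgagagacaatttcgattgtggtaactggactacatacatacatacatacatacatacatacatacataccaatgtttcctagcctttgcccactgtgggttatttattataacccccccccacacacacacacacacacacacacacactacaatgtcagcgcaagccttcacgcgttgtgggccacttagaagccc

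The GABP match of Uqcr11 begins 66 bases before the start, the NRF1 match of Ndufs6 16 bases and that of Atp5g2 42 bases before it. Cox6a1 holds 2 NRF1 matches, 1 SP1 match and 1 GABP match, the last beginning 16 bases before the start. Over windows of 250 bases before the start and 50 after, RefSeq promoters were matched for 73 of the 90 genes, 78 promoters in all. NRF1 matches were found in 19 of these (24.4%), against 4.60% of all 32851 promoters of this length and 6.38% of those of protein-coding genes. The GABP motif was found in 18 of 78 (23.1%), against 8.86% of all promoters and 11.6% of protein-coding ones. YY1 was found in 10 of 78 (12.8%), against 6.34% and 6.24%, and SP1 in 27 of 78 (34.6%), against 25.6% and 33.9%. Among promoters of members whose Hes1-null arrays were both higher, 8 of 32 held an NRF1 match and 8 of 32 a GABP match. Among those of members whose Hes1-null arrays were both lower, 0 of 7 held an NRF1 match and 1 of 7 a GABP match. Among those of members whose genotypes overlapped, the counts were 11 of 39 and 9 of 39. YY1 matches were held by 3 of 32 higher, 2 of 7 lower and 5 of 39 overlapping. For SP1 the counts were 13 of 32, 3 of 7 and 11 of 39. A match is a run of letters and not a measured binding site, and the small number of lower members leaves these shares coarse.

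Levels are log2 of the deposited probe set intensities, and each difference subtracts the wild-type mean from the Hes1-null mean and is followed by its SE (standard error, 2 arrays of each genotype). Hes1 itself lay at 5.43 and 5.84 on the Hes1-null arrays, against 5.59 and 5.79 on the wild-type arrays, so its probe set did not separate the genotypes. The labels do not say which part of the gene was removed, so this level does not check them. The MLL-fusion target Hoxa9 lay between 10.40 and 10.78 and the myeloid enzyme gene Mpo between 10.13 and 12.83 on the 4 arrays. The Hes1-null arrays were further apart (683 genes at least 2-fold apart) than the wild-type arrays (109 genes), and Xist lay at 7.25 on Hes1-null replicate 2 but at 11.73 or above on the other 3 arrays. Results are therefore also given for each Hes1-null array alone.

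No respiratory chain gene passed the test. Of the 90 members, 0 had an adjusted p under 0.05 in limma's moderated test, where 29 of 19938 genes did (0.145%). The lowest adjusted p among members was 0.540. At an unadjusted p under 0.05 there were 2 members (2.22%), Uqcr11 and Cox6a2, both higher in Hes1-null marrow, against 8.29% of all genes (3.51% higher and 4.78% lower). For 84 of the 90 members the 95% interval of the difference lay inside 2-fold either way. The 6 whose interval reached 2-fold were Ndufb8, Ndufaf1, Ndufs1, Uqcr11, Cox6b2 and Cox7a2l. Every member level lay between 3.36 and 12.81, and 64 of 90 members were at or above the 75th percentile of gene level.

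Small positive differences were the more common kind. The median difference was 0.12 over the 90 members and -0.02 over all genes, and 63 members had a positive difference (70.0%, against 46.4% of all genes, 47.7% of those at or above the median level and 47.8% of those at or above the 75th percentile). Both Hes1-null arrays lay above both wild-type arrays for 36 members (40.0%, against 17.4% of all genes) and below them for 10 (11.1%, against 20.6%), so the genotypes did not overlap for 46 (51.1%, against 38.0%). Of genes whose level reached the median, 22.9% were higher and 20.5% lower in this sense. Among genes at or above the 75th percentile of level, a background chosen after seeing the data, 24.2% were higher and 20.6% lower. The Hes1-null arrays were further apart than the wild-type arrays for 57 members (63.3%, against 72.1%). These counts carry no test. The wild-type arrays also differed from each other over these genes: 70 of 90 members (77.8%) were higher on wild-type replicate 1, by a median of 0.10, against 52.6% of all genes. The median shift of the members between genotypes is of about the size of that gap between replicates. Without wild-type replicate 1 the median difference was 0.17, and without Hes1-null replicate 1 it was 0.06.

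**Figure D1:**
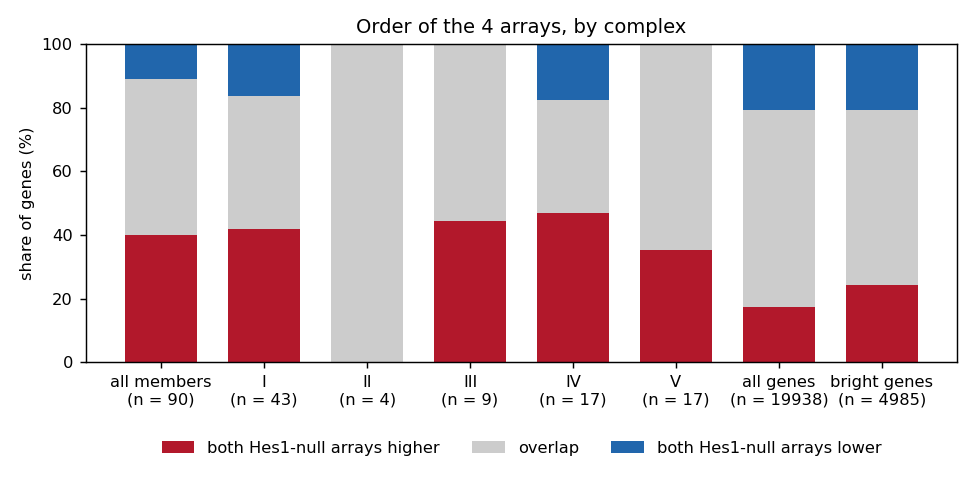
Share of genes (%, vertical axis) whose 2 Hes1-null arrays were both higher (red), both lower (blue) or overlapped (grey) with the 2 wild-type arrays, for all 90 members, each complex, all 19938 genes and the 4985 genes at or above the 75th percentile of level (bright genes). Both arrays were higher for 40.0% of members and 17.4% of all genes.

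**Figure D2:**
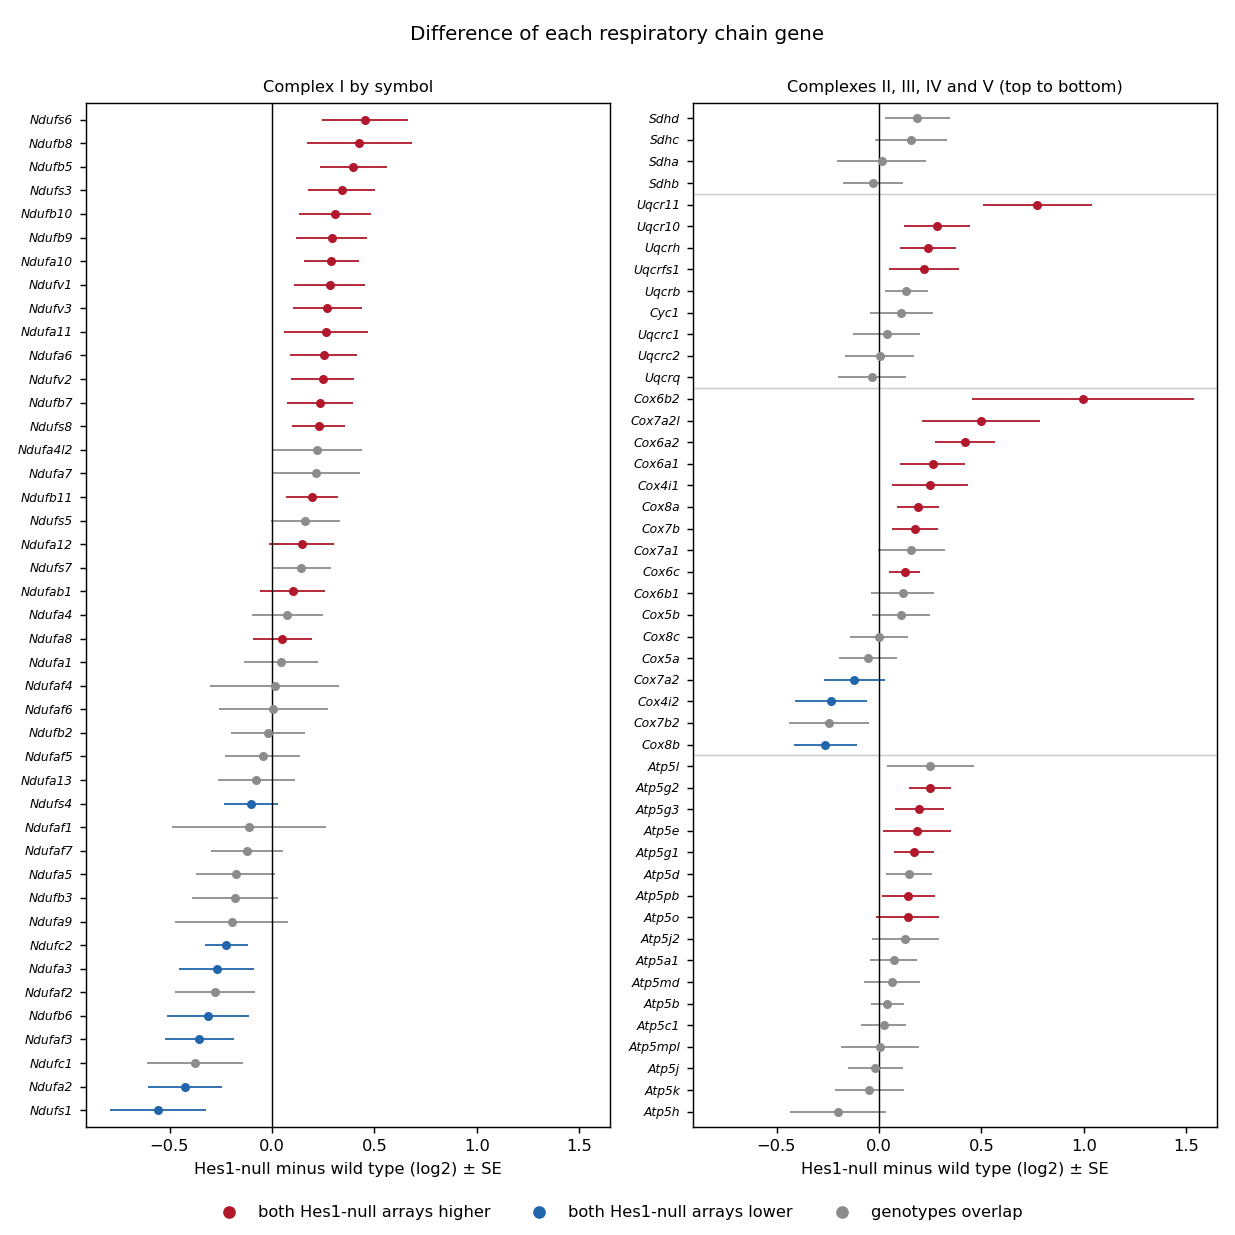
Difference (Hes1-null minus wild type, log2, horizontal axis) of each of the 90 genes with its SE, n = 2 arrays per genotype, complex I on the left and complexes II to V on the right (red, both Hes1-null arrays higher; blue, both lower; grey, overlap). Differences ran from -0.56 (Ndufs1) to 0.996 (Cox6b2), and none passed the test.

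Complex I held members in both directions. Its median difference was 0.08 over 43 genes, and without the assembly factors it was 0.15 over 36 genes. Of the 43, 18 were higher and 7 lower on both Hes1-null arrays, against 17.4% and 20.6% of all genes. These shares are also the background for the counts of each complex and role below. Between the 25th and 75th percentile the differences of complex I ran from -0.15 to 0.25, and those of complex V from 0.02 to 0.17.

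The core subunits of complex I carry its flavin, its iron-sulfur clusters and its quinone site. Of the 6 measured, 4 were higher on both Hes1-null arrays and 1 was lower. The lower one, Ndufs1, encodes the largest iron-sulfur subunit of the NADH-oxidising arm. Ndufs1 lay at 8.14 and 7.58 on the Hes1-null arrays, against 8.48 and 8.36 on the wild-type arrays. Both Hes1-null arrays were lower, replicate 2 the more so, and the difference of -0.56 ± 0.23 (1.47-fold lower) had an adjusted p of 0.614 by limma. Ndufs3, of the arm that hands electrons to quinone, lay at 10.30 and 10.02, against 9.75 and 9.89 in wild type (difference 0.34 ± 0.17). Ndufv1, which binds NADH and the flavin, lay at 9.82 and 9.52 on the Hes1-null arrays and at 9.36 and 9.42 on the wild-type arrays. Its partner Ndufv2 differed by 0.25 ± 0.15 and Ndufs8 by 0.23 ± 0.13. Thus 4 of the 5 other core genes stood opposite to Ndufs1, and for the fifth, Ndufs7 (0.14 ± 0.14), the genotypes overlapped.

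Accessory subunits surround the core and stabilise it. Among the 17 accessory genes named Ndufa, Ndufs or Ndufv the median difference was 0.10, with 8 higher and 3 lower on both arrays. Ndufs6, a zinc-binding subunit, had the largest positive difference of complex I. Ndufs6 lay at 9.25 and 9.05 on the Hes1-null arrays, against 8.48 and 8.90 on the wild-type arrays, a difference of 0.45 ± 0.21 (1.37-fold, adjusted p = 0.661). The wild-type arrays of this gene were further apart than its Hes1-null arrays. Ndufa2 lay at 8.52 and 8.23, against 8.81 and 8.78 in wild type, lower on both arrays by a mean of 0.42 on the log2 scale (-0.42 ± 0.18, adjusted p = 0.621). Ndufa10 was nearly equal on both Hes1-null arrays, at 10.58 and 10.58, against 10.37 and 10.21 (0.29 ± 0.13). Ndufa3 (-0.27 ± 0.18) and Ndufs4 (-0.10 ± 0.13), a late-assembled subunit, were the other lower ones.

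The 11 Ndufb and Ndufc genes encode accessory subunits of the membrane arm. Among them 6 were higher and 2 lower on both arrays (17.4% and 20.6% of all genes), with a median of 0.20. Ndufb8 lay at 8.76 and 9.42 on the Hes1-null arrays, against 8.61 and 8.71 on the wild-type arrays (0.43 ± 0.26, adjusted p = 0.753). Most of that difference came from replicate 2. Ndufb5 lay at 9.79 and 10.04, against 9.56 and 9.48 (0.40 ± 0.16, adjusted p = 0.611), with both Hes1-null arrays clear of wild type. Ndufb10 (0.31 ± 0.18), Ndufb9 (0.29 ± 0.17), Ndufb7 (0.23 ± 0.16) and Ndufb11 (0.20 ± 0.13) were also higher on both arrays. In the other direction Ndufb6 differed by -0.31 ± 0.20 and Ndufc2 by -0.22 ± 0.11, both lower on both arrays. Ndufc1 (-0.37 ± 0.23) lay at 9.59 and 9.05, against 9.83 and 9.56, and overlapped, while its other probe set (-0.46) was lower on both arrays.

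The assembly factors build complex I and do not remain in it. All 7 lay below both wild-type arrays on Hes1-null replicate 2, where 40.0% of all genes did and 51.2% of those at or above the 75th percentile of level. On Hes1-null replicate 1 only 1 of the 7, Ndufaf3, lay below both, and 3 lay above. Their median against the wild-type mean was 0.12 on replicate 1 and -0.43 on replicate 2. Ndufaf1 lay at 8.32 and 7.21 on the Hes1-null arrays, against 7.82 and 7.93 on the wild-type arrays, so the 2 Hes1-null arrays fell on opposite sides of wild type. Ndufaf4 did the same, at 7.85 and 6.96, against 7.49 and 7.29. Ndufaf3 lay at 9.47 and 9.20, against 9.70 and 9.68, and was the assembly factor lower on both arrays (-0.35 ± 0.17, adjusted p = 0.670).

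Complex II, succinate dehydrogenase, did not separate the genotypes for any of its 4 genes. Sdha, the flavoprotein, lay at 10.58 and 10.03 on the Hes1-null arrays, against 10.36 and 10.22 on the wild-type arrays (0.01 ± 0.22). Sdhb, the iron-sulfur subunit, lay at 9.49 and 9.58, against 9.58 and 9.55 (-0.03 ± 0.15, 95% interval -0.40 to 0.34). The remaining genes encode the membrane anchors. Sdhc lay at 10.53 and 10.18, against 10.27 and 10.13 (0.16 ± 0.17), and Sdhd lay at 10.39 and 10.14, against 10.15 and 10.005 (0.19 ± 0.16). Sdha, Sdhc and Sdhd were highest of the 4 arrays on Hes1-null replicate 1, and on replicate 2 Sdha was the lowest while Sdhc and Sdhd lay within the wild-type range.

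Complex III had a median difference of 0.13 over 9 genes, 4 of them higher and 0 lower on both arrays. Uqcr11, one of its smallest subunits, had the lowest p of all members. Uqcr11 lay at 9.69 and 10.42 on the Hes1-null arrays, against 9.22 and 9.34 on the wild-type arrays. Both Hes1-null arrays stood above wild type, by 0.41 and 1.14 over its mean. The difference of 0.77 ± 0.27 (1.71-fold, 95% interval 0.10 to 1.44) had an adjusted p of 0.540 by limma, from an unadjusted p of 0.0308. The gene's other probe set gave 0.64. Uqcr10, another small subunit, lay at 8.76 and 8.73, against 8.52 and 8.40 (0.28 ± 0.16), and the hinge protein gene Uqcrh lay at 10.02 and 10.04, against 9.80 and 9.78 (0.24 ± 0.14). Uqcrfs1, the Rieske iron-sulfur protein, differed by 0.22 ± 0.17. Cyc1, cytochrome c1, differed by 0.11 ± 0.15. The large core proteins Uqcrc1 (0.04 ± 0.16) and Uqcrc2 (0.00 ± 0.17) had differences near 0, and both were above wild type on Hes1-null replicate 1 and below it on replicate 2.

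Removing 1 array made 2 members pass. Without Hes1-null replicate 1, 999 of 19938 genes (5.01%) and 2 of 90 members had an adjusted p under 0.05. These were Uqcr11 (difference 1.14, adjusted p = 0.0383) and Ndufs1 (-0.84, adjusted p = 0.0485). That fit rests on a single Hes1-null array, which is assumed to vary like the wild-type arrays. Without Hes1-null replicate 2 the same differences were 0.41 (adjusted p = 0.242) and -0.28 (adjusted p = 0.332). With a wild-type array left out, 0 members passed.

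**Figure D3:**
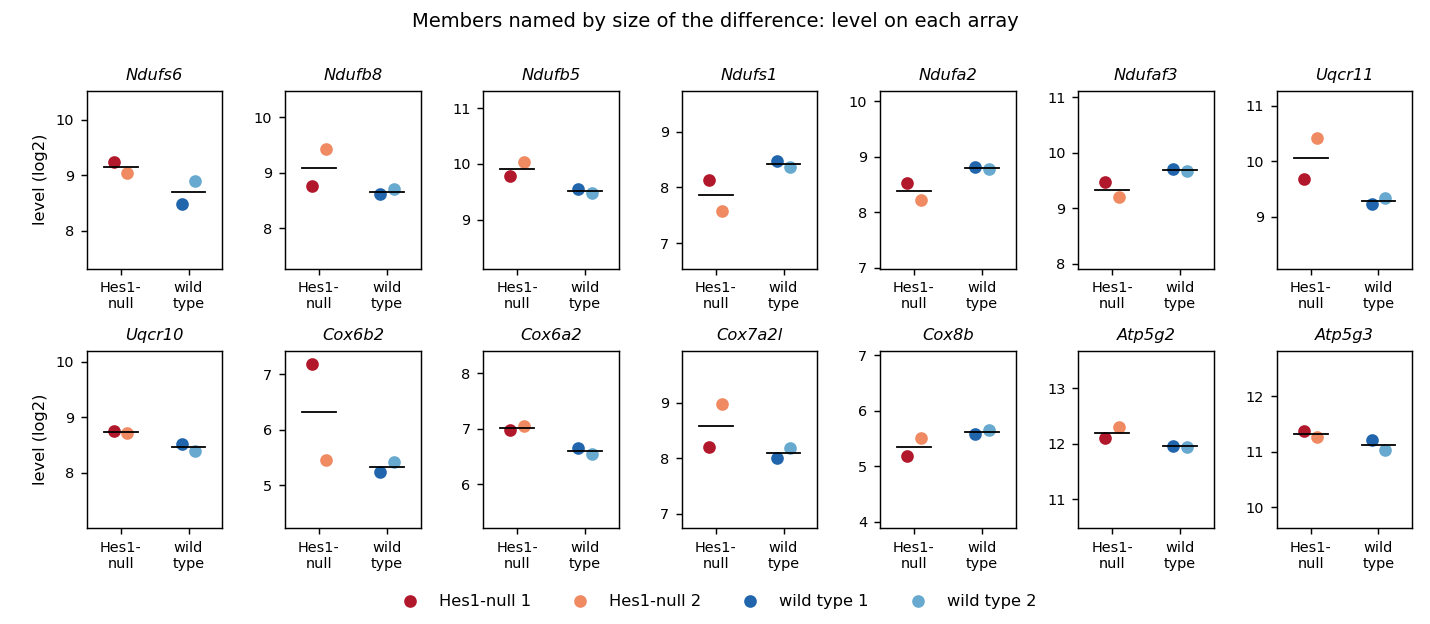
Level (log2, vertical axis, equal span in each panel) of 14 genes on the 2 Hes1-null and 2 wild-type arrays, with a line at the mean of each genotype. Uqcr11 and Ndufb8 were highest on Hes1-null replicate 2, and Cox6b2 stood apart on Hes1-null replicate 1 alone.

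Complex IV has general subunits and, for several of them, isoforms known from particular tissues. Over the 17 genes the median difference was 0.13, with 8 higher and 3 lower on both arrays. Its 9 general subunit genes had a median of 0.13, with 5 higher and 1 lower. The median level of these genes ran from 10.73 to 11.03 over the 4 arrays, and that of the 7 tissue isoforms from 5.91 to 6.27. Over all genes the median level was 6.36. Such levels do not show whether the tissue isoforms are expressed in this marrow. Cox4i1, the general form of a subunit that senses ATP, lay at 9.62 and 10.002 on the Hes1-null arrays, against 9.60 and 9.53 on the wild-type arrays (0.25 ± 0.19). Cox4i2, its isoform of lung and low oxygen, lay at 6.94 and 7.08, against 7.39 and 7.10 (-0.23 ± 0.18). The isoforms thus stood on opposite sides, with neither difference past the test.

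Cox6a1 lay at 9.97 and 10.21 on the Hes1-null arrays, against 9.87 and 9.78 on the wild-type arrays (0.26 ± 0.16). Its heart and skeletal muscle isoform Cox6a2 lay at 6.98 and 7.06, against 6.65 and 6.54 (0.42 ± 0.15, 1.34-fold, unadjusted p = 0.0320, adjusted p = 0.544). Here both isoforms were higher on both arrays. Cox6b1 lay at 11.24 and 11.54, against 11.38 and 11.17 (0.12 ± 0.15). Its testis isoform Cox6b2 lay at 7.18 and 5.46, against 5.23 and 5.41 (0.996 ± 0.54, adjusted p = 0.720). Cox6b2 had the largest difference of all members, and it came from Hes1-null replicate 1, while replicate 2 lay 0.14 above the wild-type mean.

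Cox7a2 lay at 9.64 and 9.57 on the Hes1-null arrays, against 9.77 and 9.67 on the wild-type arrays (-0.12 ± 0.15), and its muscle isoform Cox7a1 lay at 6.27 and 6.17, against 6.22 and 5.91 (0.16 ± 0.16). Cox7a2l, the supercomplex factor, lay at 8.20 and 8.98, against 7.998 and 8.18 (0.50 ± 0.29, 1.41-fold, adjusted p = 0.743), and its other probe set gave 0.55. Cox7a2 and Cox7a2l, which are related in sequence, did not share a direction. Cox8a lay at 11.93 and 11.92, against 11.82 and 11.66 (0.19 ± 0.10). Its muscle isoform Cox8b lay at 5.20 and 5.51, against 5.58 and 5.65 (-0.26 ± 0.16), and its testis isoform Cox8c at 6.15 and 6.28, against 6.26 and 6.17 (0.00 ± 0.14). Ndufa4 lay at 9.19 and 9.004, against 9.11 and 8.93 (0.08 ± 0.17), and its paralogue Ndufa4l2, known as a target of low oxygen, at 5.51 and 6.09, against 5.53 and 5.64 (0.22 ± 0.22). Cox7b2, a testis isoform, lay at 3.36 and 3.56, against 3.93 and 3.48, and was the only member below the 25th percentile of gene level.

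Complex V had a median difference of 0.13 over 17 genes, 6 higher and 0 lower on both arrays. The median was 0.07 for the F1 part, which holds the catalytic head, 0.06 for the peripheral stalk and 0.15 for the membrane part. Atp5b, the head's catalytic beta subunit, lay at 12.71 and 12.60 on the Hes1-null arrays, against 12.64 and 12.58 on the wild-type arrays (0.04 ± 0.08, 95% interval -0.16 to 0.25). Atp5a1 (0.07 ± 0.12) and Atp5c1 (0.02 ± 0.11) also had small differences. Atp5e, the small epsilon subunit, was the F1 gene higher on both arrays, at 8.23 and 8.22, against 8.11 and 7.96 (0.19 ± 0.17). The 3 genes for the proton-carrying c subunit were each higher on both arrays. Atp5g1 lay at 11.65 and 11.62, against 11.49 and 11.45 (0.17 ± 0.10). Atp5g2 lay at 12.11 and 12.30, against 11.96 and 11.95 (0.25 ± 0.10, 1.19-fold, adjusted p = 0.612), and Atp5g3 at 11.37 and 11.27, against 11.20 and 11.04 (0.20 ± 0.12). In the membrane part Atp5l differed by 0.25 ± 0.21 with its 6 probe sets between 0.25 and 0.31. The peripheral stalk was mixed. Atp5pb (0.14 ± 0.13) and Atp5o (0.14 ± 0.15) were higher on both arrays, but the other probe set of Atp5pb gave only 0.02. Atp5h lay at 10.82 and 10.18, against 10.79 and 10.61 (-0.20 ± 0.23).

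Genes with near-identical copies could be read by more than 1 probe set. Of the 90 members, 17 had several, and within each of the 17 the differences had the same sign. The median range was 0.05 and the largest 0.19, for Ndufa11. Whether the genotypes overlapped did depend on the probe set for Ndufc1, Atp5l, Cox6c, Ndufa11 and Uqcrb. The counts of members higher or lower on both arrays rest on the brightest probe set.

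Read one by one, the Hes1-null arrays gave different pictures. Replicate 1 lay above both wild-type arrays for 58 members (64.4%, against 34.4% of all genes and 51.1% of genes at or above the 75th percentile of level) and below both for 17 (18.9%, against 44.3% and 31.3%). Replicate 2 lay above both for 46 (51.1%, against 42.1% and 37.2%) and below both for 30 (33.3%, against 40.0% and 51.2%). The 2 counts share the wild-type arrays. The median against the wild-type mean was 0.13 on replicate 1 and 0.06 on replicate 2 over the members, -0.04 and 0.01 over all genes, and 0.06 and -0.07 over genes at or above the 75th percentile. By complex, replicates 1 and 2 gave 0.09 and 0.06 for complex I and 0.30 and 0.00 for complex II. They gave 0.23 and 0.06 for complex III, 0.06 and 0.12 for complex IV and 0.15 and 0.04 for complex V. In complex V 13 of 17 genes lay above both wild-type arrays on replicate 1 and 9 on replicate 2, and 0 and 4 lay below. The members spread more widely on replicate 2 in complex I, from -0.84 to 0.76 against the wild-type mean, than on replicate 1, from -0.28 to 0.55.

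**Figure D4:**
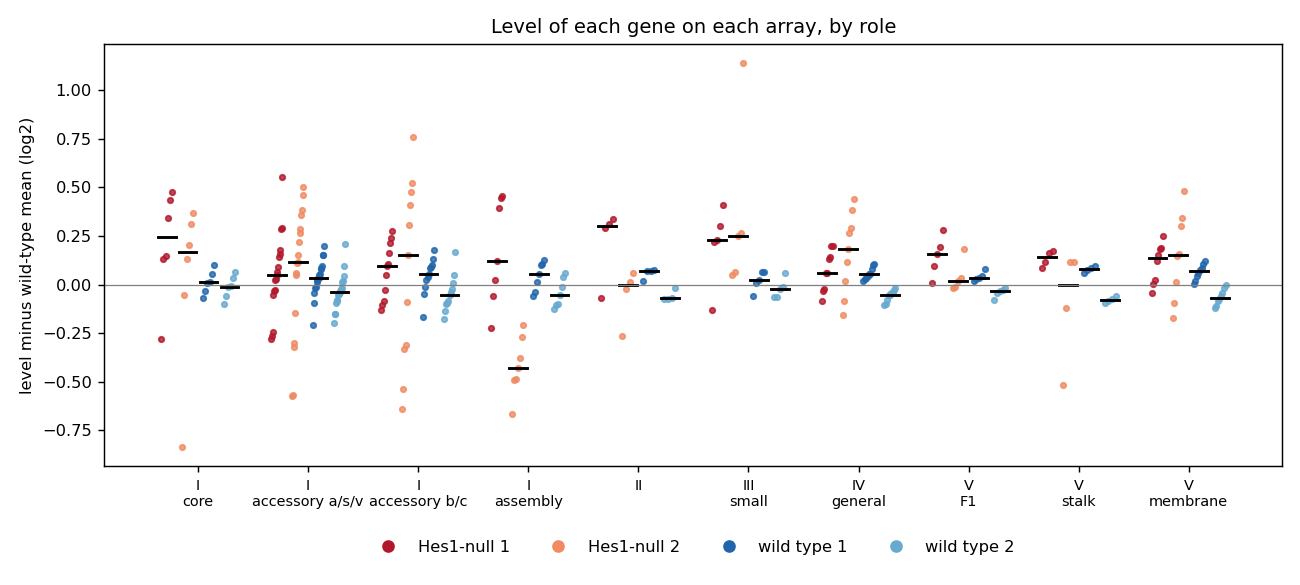
Level of each gene minus its wild-type mean (log2, vertical axis) on each of the 4 arrays, with a black line at the median, for 10 role groups of complexes I to V (the core proteins and electron-transfer subunits of complex III, tissue isoforms, Cox7a2l, Ndufa4 and Ndufa4l2 are not drawn). The 7 assembly factors lay between -0.67 and -0.21 on Hes1-null replicate 2.

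Other genes of mitochondrial energy metabolism were read from lists, and in each of the 7 lists 0 genes had an adjusted p under 0.05 by limma. At an unadjusted p under 0.05 by limma, 3.51% of all genes were higher and 4.78% lower. At that threshold 1 of 44 respiratory chain assembly factors was higher and 0 lower, with a median difference of -0.01. The 2 with the lowest p were Sdhaf1 (0.44 ± 0.17), for complex II, and Ttc19 (0.39 ± 0.16), for complex III. This list contains the 7 Ndufaf genes. On Hes1-null replicate 1, 30 of its 44 genes lay above both wild-type arrays, and on replicate 2, 31 of 44 lay below both. Of all genes, 34.4% lay above both on replicate 1 and 40.0% below both on replicate 2. At or above the 75th percentile of level these shares were 51.1% and 51.2%, so bright genes in general leaned the same way. Tricarboxylic acid cycle enzymes (17 measured, median 0.04) had 16 above both on replicate 1 and 11 below both on replicate 2, with citrate synthase, Cs, at 11.36 and 11.63 on the Hes1-null arrays, against 11.20 and 11.23 (0.28 ± 0.13), and Pcx, pyruvate carboxylase, at a difference of 0.41 ± 0.23. Electron carriers and coenzyme Q enzymes (15 measured, median -0.11) had 8 above both on replicate 1 and 11 below both on replicate 2. Their median was -0.46 without Hes1-null replicate 1 and 0.04 without replicate 2. Gpd2, the glycerol phosphate dehydrogenase that feeds electrons to ubiquinone, lay at 9.07 and 8.74, against 9.57 and 9.76 (-0.76 ± 0.19, adjusted p = 0.336). Coq3 differed by -1.04 ± 0.59, with Hes1-null replicate 2 at 6.79 and the other 3 arrays at 8.65 or above. On replicate 2 the members that encode structural subunits had a median of 0.11 against the wild-type mean (82 genes), while that of the assembly factor list was -0.20.

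The regulators of mitochondrial biogenesis (13 measured) had a median of 0.08. At an unadjusted p under 0.05 by limma 2 were higher and 0 lower, against 3.51% and 4.78% of all genes. On Hes1-null replicate 1, 11 of 13 lay above both wild-type arrays, and on replicate 2, 7 of 13 lay below both. The shares were 34.4% and 40.0% for all genes, and 51.1% and 51.2% for genes at or above the 75th percentile of level. The median was -0.07 without replicate 1 and 0.27 without replicate 2. The 2 genes were coactivators of the PGC-1 family. Ppargc1b lay at 7.47 and 7.61 on the Hes1-null arrays, against 6.88 and 6.78 on the wild-type arrays (0.71 ± 0.16, adjusted p = 0.269), and Ppargc1a lay at 4.69 and 5.34, against 4.21 and 4.54 (0.64 ± 0.25, adjusted p = 0.595). Both were higher on both Hes1-null arrays, but the mean level of Ppargc1a lay below the 25th percentile of gene level. Nucleotide and phosphate carriers (9 measured) had a median of 0.03, with 6 of 9 above both wild-type arrays on Hes1-null replicate 1 and 8 of 9 below both on replicate 2. Their median was -0.16 without replicate 1 and 0.12 without replicate 2. Atpif1, the inhibitor of the ATP synthase, differed by -0.34 ± 0.17, and the nucleotide carrier gene Slc25a31 by -0.30 ± 0.14. Slc25a31 had the lowest levels of this list, 3.38 and 3.56 on the Hes1-null arrays, against 3.79 and 3.75. These lay below the 25th percentile of gene level (5.01). Glycolysis genes (20 measured) had a median of 0.00. At an unadjusted p under 0.05 by limma 0 were higher and 2 lower, against 3.51% and 4.78% of all genes. The lower ones were Hk3 (-0.76 ± 0.23) and the lactate transporter gene Slc16a3 (-0.50 ± 0.18). Of the subunits encoded by mitochondrial DNA, 2 had a symbol of their own: COX2 (0.23 ± 0.13) and ND3 (0.05 ± 0.15).

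**Figure D5:**
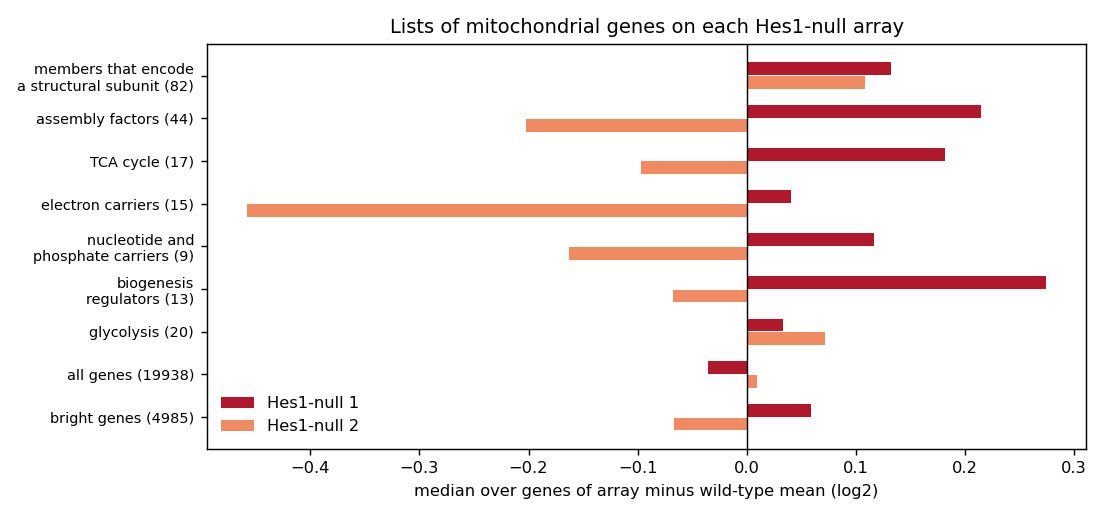
Median over genes of the level on a Hes1-null array minus the wild-type mean (log2, horizontal axis), replicate 1 in red and replicate 2 in orange, for the members that encode structural subunits, 6 other lists, all genes and genes at or above the 75th percentile of level (bright genes), with the number of genes in brackets. Structural subunits had medians of 0.13 and 0.11, and assembly factors 0.21 and -0.20.

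Whole marrow mixes leukemic and other cells, and fewer cells of a type and less RNA per cell cannot be told apart. Marker genes of several cell types differed between the genotypes. Of all genes, 17.4% were higher and 20.6% lower on both Hes1-null arrays. Summed intensities of 10 late neutrophil markers were 9657 and 12838 on the Hes1-null arrays, against 14209 and 22947 on the wild-type arrays, with 7 of 10 lower on both. The sums of 8 monocyte and macrophage markers were 8247 and 8014, against 13919 and 13151, with 7 of 8 lower on both. For 6 progenitor markers they were 10501 and 8956, against 7701 and 7354, but only 1 of the 6 was higher on both Hes1-null arrays, 1 was lower and 4 overlapped, with a median difference of 0.09. For 7 proliferation genes the sums were 10236 and 8044, against 10698 and 10414, so Hes1-null replicate 2 was the lowest. Immediate early and heat shock genes, listed for sample handling, summed to 8219 and 13113, against 2430 and 2621. Of these 8 genes, 7 were higher on both Hes1-null arrays. The part of handling and of genotype in this difference was not tested. Markers of red cells (5 measured, sums of 547 and 549, against 713 and 579), B cells (6, 1599 and 878, against 1110 and 1096), T and NK cells (7, 465 and 315, against 631 and 949) and stroma and endothelium (7, 905 and 764, against 1099 and 1030) were summed in the same way. Lower on both Hes1-null arrays were 2 of 5 red cell, 1 of 6 B cell, 6 of 7 T and NK and 4 of 7 stromal markers. Higher on both were 1 B cell and 1 T and NK marker. The late neutrophil, monocyte and macrophage, and handling lists each held 1 gene with an adjusted p under 0.05 by limma. Intensities on these arrays do not reach 0. The part of these shifts in the differences of the respiratory chain genes was not tested.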

How the data were processed

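Total RNA of 4 leukemic marrows was hybridised to Affymetrix MoGene-1_0-st-v1 arrays, 1 array each. The authors deposited probe set intensities, and the submitters' processing notes name RMA and Affymetrix Expression Console. Their versions were not given in the labels. The scale is linear, with array medians between 65.0 and 67.3, so log2 was taken, with no value added and no further normalization. Of 35556 probe sets, 21789 have 1 symbol in the platform annotation, 1621 have several and 12146 are not listed. The probe set with the highest mean stood for a gene, which left 19938 genes without a filter on level. All 90 members matched RefSeq (GRCm38.p6) by Entrez identifier. The test was limma's moderated test (version 3.58.1, R 4.3.3, intensity trend, genotype as the only term, two-sided, Benjamini-Hochberg over all genes, threshold 0.05), on 2 residual degrees of freedom and 3.41 from the prior. The script was tested on simulated data. The median SE of a member was 0.17. P-values set each difference against the spread between these samples, moderated toward that of genes of like level. That spread may be partly technical, and the number of arrays limits precision. Members were read by role, and lists by counts and medians. Genes given per array were those with an adjusted p under 0.05, the 3 largest differences in each direction per complex among genes with non-overlapping genotypes, all of complex II and the isoform pairs. Ndufs3, Ndufv1, Ndufa10, Ndufc1, Ndufaf1, Ndufaf4, Cox7b2, Atp5b and Atp5h are also given per array and were chosen after their values were seen. Of other lists, the 2 genes with the lowest p are named. Members and lists were chosen with earlier results of these data known. Probe set sequences were not used here.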

Additional observations from a re-analysis of the deposited data

How the results depend on the processing

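The count of respiratory chain genes with an adjusted p under 0.05 was 0 in limma's fit and 2 without Hes1-null replicate 1, and it was 0 under the other settings run. Leaving out 1 array moved it between 0 and 2. The count over all genes was 29, ran from 6 to 999 with 1 array left out, and was 17 at the 25th percentile filter on level and 45 with array weights. The series counts its samples in pairs and the labels give both genotypes the numbers 1 and 2, without saying what a pair or number shares, and deviations of the arrays numbered 1 correlated at 0.05 across genes. With the replicate number as a block 89 genes and 0 members were called. The median difference of complex I was 0.15 without the assembly factors, with Ndufa4 and Ndufa4l2 still counted. With 1 array left out, the median ran from -0.0043 to 0.30 for complex II, from 0.0081 to 0.22 for complex IV and from 0.062 to 0.17 over all members, and that of Hes1-null replicate 2 alone from 0.027 to 0.12. Leaving out 1 array turned the sign of the difference for 30 of the 90 members, and for 28 of the 90 the Hes1-null arrays lay on opposite sides of the wild-type mean. Among the 31 members recomputed under every setting, Cox6b1 ran from -0.034 to 0.26, Cox8c from -0.069 to 0.070, Ndufa4 from -0.018 to 0.17, Ndufa4l2 from -0.075 to 0.51, Sdha from -0.27 to 0.29, Sdhb from -0.072 to 0.014 and Sdhc from -0.023 to 0.34. Sdhb was also 0.0031 after centring the arrays. Of the values of these 31 members under other settings, 11 changed sign. The block, the moderation settings and the array weights leave each difference as it was. Members picked because their genotypes did not overlap cannot change sign with 1 array left out. The count of 11 therefore does not measure how stable the members are. The medians of the assembly factor, tricarboxylic acid cycle, electron carrier, biogenesis and nucleotide carrier lists took opposite signs without Hes1-null replicate 1 and without replicate 2. Over genes at or above the 75th percentile of level, the median against the wild-type mean was 0.06 on replicate 1 and -0.07 on replicate 2. The cause was not tested.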

Other observations

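Probe sets that carry a second symbol, were left out by the rule. The 2 probe sets shared by Ndufb4, an accessory subunit of complex I, and Ndufb4b had differences of 0.26 and 0.22 and were higher on both Hes1-null arrays. The 3 probe sets shared by Cox7c, a small subunit of complex IV, and Gm12338 had differences of 0.08, 0.08 and 0.11. On the 3 Cox7c probe sets the Hes1-null arrays lay between 12.08 and 12.21, against 11.94 and 12.20 as the lowest and highest level on the wild-type arrays. The probe set shared by Ndufs5 and Ndufs5-ps had a difference of -0.02, against 0.16 for the probe set that names Ndufs5 alone. No test was run on the 6 shared probe sets.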
